A study of Mus musculus with 8 samples.

Results

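The nuclear genes for respiratory complexes II, III and IV and for the ATP synthase, complex V, were described in mouse mutator and wild-type induced pluripotent stem (iPS) cells. They were taken by gene symbol: Sdha to Sdhd, all symbols beginning with Uqcr, with Cox4 to Cox8, or with Atp5 and a letter, leaving out Atp5s, Atp5sl and symbols with "-ps". This gave 47 of the 37305 gene rows. Of these, 45 are subunit genes, 4 in complex II, 8 in complex III, 18 in complex IV (with Cox7a2l, a supercomplex factor) and 15 in complex V. The other 2 rows are no subunits: Cox4nb is annotated as Emc8, a neighbour of Cox4i1 that encodes a subunit of the ER membrane complex, and Atp5l2 is annotated as a processed pseudogene in GENCODE M21.

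The mut libraries, 5 in number, came from iPS cell lines that carry the D257A allele of Polg on both chromosomes. The wt libraries, 3 in number, came from lines of littermate control embryos. The enzyme encoded by Polg copies mitochondrial DNA, and D257A takes away its ability to correct errors. All cells were grown on mitotically arrested feeders in LIF and were passaged a single time on gelatin before RNA was taken. Values are deposited FPKM, which count fragments relative to transcript length and to library size, so levels of different genes can be set side by side per length. The depth of the libraries was not recorded in the values.

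The lines limit the comparison. The column headers of mut replicates 1 and 2 share a code (u6), and their FPKM differed by a median of 0.0497 on the log2 scale, against 0.137 to 0.455 in the 12 other pairs within a group. They were averaged and counted as 1 sample, although the design text calls the 5 mut lines independent, so that 4 mut samples were set against 3 wt samples. The wt headers share the number 7 (7a, 7b and 7c), and nothing says whether those lines had separate embryos. The p-values measure the spread between these samples only, and line and genotype cannot be told apart where lines share an embryo. Polg itself measured 10.2 ± 1.93 FPKM in mut samples (SD, n = 4) and 9.48 ± 0.539 FPKM in wt samples (SD, n = 3), a log2 change of 0.07 ± 0.18 (SE; limma adjusted p = 0.81). A point substitution need not alter a transcript level, so this value does not check the genotype labels.

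Complex II, succinate dehydrogenase, passes electrons from succinate to ubiquinone and is built from nuclear-encoded subunits only. Complex III passes them on to cytochrome c, and complex IV, cytochrome c oxidase, from there to oxygen, while complex V uses the proton gradient to make ATP. In complexes III to V subunits encoded by mitochondrial DNA are joined by many nuclear subunits, so that both genomes have to supply parts. Several small subunits of complex IV exist as a widely expressed form and a form restricted to tissues such as muscle, lung or testis.

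Marker genes were examined in the same libraries. The 12 pluripotency genes, Pou5f1, Nanog, Sox2 and Zfp42 among them, were detected in every library, with a summed level of 623.5 to 839.6 FPKM in mut libraries and 937.8 to 1247 FPKM in wt libraries, and limma called 0 of 12 (2 lower at an unadjusted p below 0.05), with log2 changes below 0 for 7 and a median of -0.05. The 20 feeder fibroblast genes summed to 636.5, 639.3, 607.2, 265.5 and 337.2 FPKM in mut replicates 1 to 5 and to 190.3 to 247.1 FPKM in wt libraries. Of 18 tested, 1 rose, the fibronectin gene Fn1 (log2 change 1.0 ± 0.21, SE, limma adjusted p = 0.036; 0.10 to 0.14 without a wt replicate), and 6 were higher at an unadjusted p below 0.05. Log2 changes were below 0 for 0 of 18, with a median of 0.82. The 10 defining ones summed to 18.3 to 84.8 FPKM in mut and 12.1 to 20.1 FPKM in wt libraries, with none at 0. The 14 primitive endoderm genes summed to 67.9 to 399 FPKM in mut libraries, highest in mut replicate 5, and to 55.2 to 66.0 FPKM in wt libraries. Limma called 0 of the 8 tested (6 higher at an unadjusted p below 0.05), with changes below 0 for 0 of 8 and a median of 1.17, and Sox17 and Foxa2, among the 5 defining ones, were listed at 0 in wt replicate 3. Of all genes tested 2.95% were called higher and 13.6% were higher at an unadjusted p below 0.05. The shares for lower were 4.54% and 16.8%. Log2 changes were below 0 for 52.4% of all genes, with a median of -0.03. All 3 full sums differed between the groups without overlap, but those of the 10 defining feeder genes overlapped. All FPKM of a library added up to 753984 to 1269265 in mut and to 1192982 to 1780534 in wt libraries. The marker sums were not scaled to these totals, so overlap after such scaling was not examined. In the pluripotency sum Tdgf1 averaged 128 FPKM in mut and 330 FPKM in wt samples, and Pou5f1 148 and 263 FPKM. Sox2 averaged 69.7 FPKM in mut and 68.4 FPKM in wt samples. The part of the marker sums in the results below was not tested.

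Across the 4 complexes, subunit genes were called about as often as other genes. Averaged over the 8 libraries, 40 of the 45 reached 1 FPKM and were tested. The test was limma on log2(FPKM + 1) over 11949 genes, and genes were called at a Benjamini-Hochberg adjusted p below 0.05. Uqcrh in complex III and Atp5k in complex V fell, Cox6b2 in complex IV rose, and 37 did not pass. These are 2 lower of 40, where 4.54% of all genes tested were called lower, and 1 higher of 40, where 2.95% were called higher, or 7.49% in either direction. The 4 mut samples lay below all 3 wt samples for 7 members, against 16.2% of all genes, and above them for 1 member, against 12.4%. The log2 changes were below 0 for 28 of 40 members (70.0%), against 52.4% of all genes, and the median was -0.32, against -0.03. Without wt replicate 1 the members' median was -0.14, against 0.05 for all genes. It was also -0.14 with a trend on length and GC content removed, against 0.01, and 0.14 under rescaling to TPM, against 0.37. At an unadjusted p below 0.05 the members counted 7 lower and 1 higher, against 16.8% and 13.6% of all genes. No test was made over the list.

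The medians differed between the complexes. The median log2 change was -0.49 over 8 genes of complex III, -0.27 over 15 of complex V, -0.17 over 4 of complex II and 0.17 over the 13 tested of complex IV. Below 0 were 7 of 8 genes in complex III, 12 of 15 in complex V, 3 of 4 in complex II and 6 of 13 in complex IV. The symbols left out Ndufa4, now counted as a subunit of complex IV, at a log2 change of -0.92 (SE 0.40, limma adjusted p = 0.16). The 13 include the supercomplex factor Cox7a2l, at 0.23. The median of complex IV thus depends on which genes are counted in it. Rescaling to TPM shifted the median of all genes to 0.37. Relative to that shift the medians were -0.37 for complex III, -0.13 for complex V, -0.04 for complex II and 0.26 for complex IV. The members are short, with a median longest transcript of 1065 bases against 3082 bases for all genes tested. With a trend on length and GC content removed, the medians relative to all genes were -0.36 for complex III, -0.13 for complex V, -0.09 for complex II and 0.15 for complex IV. Single libraries moved these medians. Complex IV was at 0.46 without wt replicate 1, 0.04 without wt replicate 2 and 0.33 without mut replicate 3. It was at -0.05 without wt replicate 3 and at -0.06 without mut replicate 5, so its sign changed with either left out. Relative to all genes it was 0.02 in each of these last cases. Complex II was at -0.03 without wt replicate 1, -0.07 without the mut 1 and 2 pair, -0.29 without wt replicate 3 and -0.28 without mut replicate 5, and complex V at -0.17 without wt replicate 1. Differences between the complexes were not tested.

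**Figure D1:**
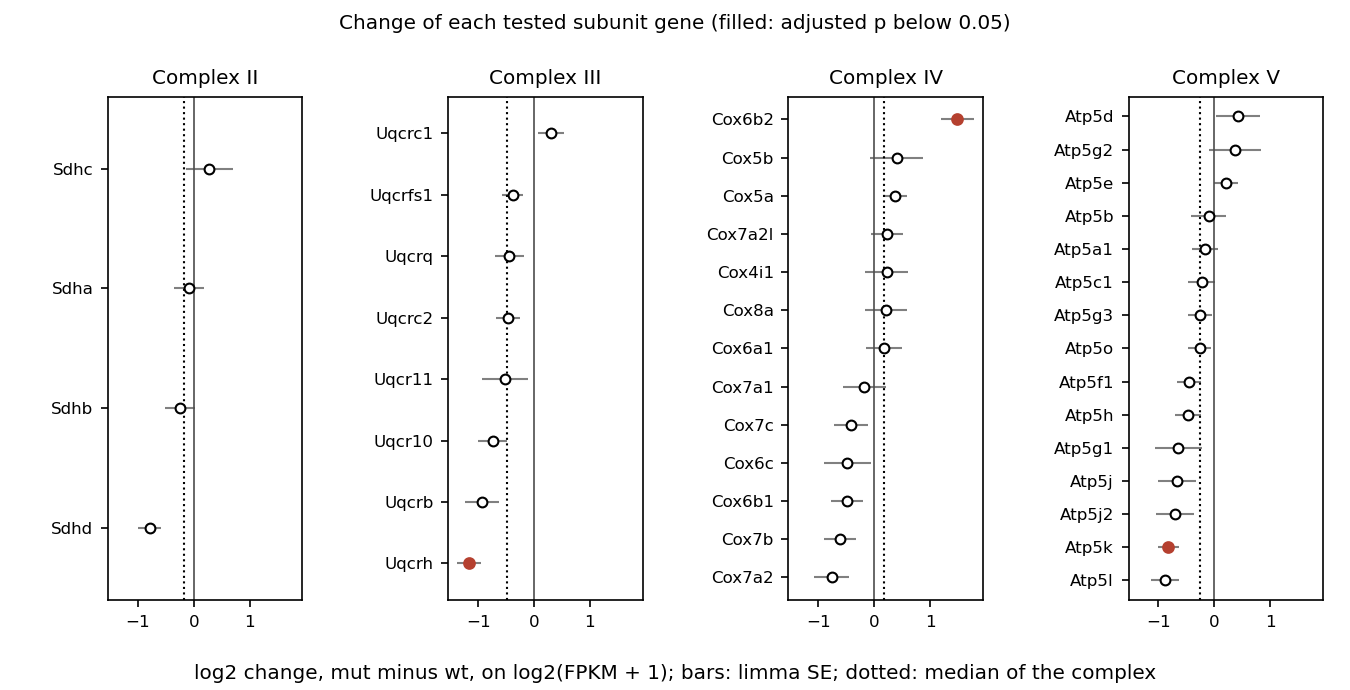
Log2 change of each tested subunit gene, mut minus wt, on the log2(FPKM + 1) scale (horizontal axis), with 1 panel per complex. Bars are limma standard errors, filled points passed the adjusted p of 0.05 (Uqcrh, Cox6b2 and Atp5k), and dotted lines are the medians of the complexes, -0.17, -0.49, 0.17 and -0.27 for II, III, IV and V.

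In complex II none of the 4 genes passed in limma, and 1, the membrane anchor Sdhd, was lower at an unadjusted p below 0.05. It measured 33.5, 34.0, 27.3, 27.3 and 37.5 FPKM in mut replicates 1 to 5, against 67.3, 51.4 and 47.1 FPKM in wt replicates 1 to 3. All mut libraries were below all wt libraries. The log2 change was -0.79 ± 0.21 (SE; limma adjusted p = 0.055). An exact permutation test, two-sided, gave p = 0.057, the smallest that 4 against 3 samples allow. With median-of-ratios size factors the adjusted p was 0.0146, and under TPM it was 0.61 at a log2 change of -0.29. With those size factors 2150 of 11949 genes were called, against 895 without them.

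Sdha, the flavoprotein that oxidises succinate, was the most abundant gene of complex II. Its levels were 51.8 and 49.6 FPKM in mut replicates 1 and 2 and 95.5, 94.3 and 89.6 FPKM in mut replicates 3 to 5, against 94.6, 86.5 and 74.9 FPKM in wt libraries. The low values were thus those of the pair counted as 1 sample, and the groups overlapped. Sdhb, the iron-sulfur subunit, measured 14.7, 16.4, 10.5, 15.1 and 22 FPKM in mut and 24.6, 17.3 and 14.7 FPKM in wt libraries, at a log2 change of -0.25 (SE 0.27, limma adjusted p = 0.54). Sdhc, the second membrane anchor, ranged from 5.38 to 22.1 FPKM in mut and from 5.77 to 10.8 FPKM in wt libraries, with the highest value in mut replicate 5. The log2 change of Sdhc was 0.28, and -0.10 without mut replicate 5, so that its sign rested on that library.

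In complex III Uqcrh, the hinge subunit near the cytochrome c docking site, fell. It lies on chromosome 4 (116066965 to 116075071, ENSMUSG00000063882, GENCODE M21 on GRCm38). Its levels were 42.2, 42.0, 56.1, 40.9 and 57.7 FPKM in mut replicates 1 to 5, against 128, 99.96 and 104 FPKM in wt replicates 1 to 3. The highest mut library was well below the lowest wt library. The means were 49.2 ± 8.93 FPKM in mut (SD, n = 4) and 111 ± 15.1 FPKM in wt samples (SD, n = 3), a log2 change of -1.16 ± 0.21 (SE; limma adjusted p = 0.031). The exact permutation p was 0.057. A processed pseudogene on the opposite strand, Gm12854, overlaps the gene, and the strand setting of the libraries is not given in the sources used here, so the level of Uqcrh is uncertain by any reads they share.

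The other small subunits of complex III had negative changes as well, none of which passed. Uqcrb, which binds near the ubiquinone site, was the most abundant gene of the complex. It measured 88.9, 86.9, 45.6, 76.7 and 98.6 FPKM in mut and 189, 125 and 124 FPKM in wt libraries, a log2 change of -0.94 (SE 0.31, limma adjusted p = 0.089). The change of Uqcrb was called with samples weighted by quality (array weights) and with median-of-ratios size factors (limma adjusted p = 0.039 for each). Under these settings 2752 and 2150 genes in all were called, against 895 without them. However, the change of Uqcrb was -0.40 with the length and GC trend removed and -0.43 under TPM (limma adjusted p of 0.31 and 0.50). Uqcr10 measured 16.9, 16.1, 9.75, 15.5 and 18.3 FPKM in mut and 33.2, 19.9 and 23.8 FPKM in wt libraries, a change of -0.74 (SE 0.26, limma adjusted p = 0.10; 0.048 with median-of-ratios size factors and 0.67, at -0.25, under TPM). For both Uqcrb and Uqcr10, all mut libraries were below all wt libraries, and the lowest was mut replicate 3. Uqcr11 ranged from 8.88 to 23.5 FPKM in mut and from 12.8 to 31.4 FPKM in wt libraries, and Uqcrq from 57.9 to 109 FPKM in mut and from 82.1 to 117 FPKM in wt libraries, so that the groups overlapped. The 5 small and hinge subunits had a median log2 change of -0.74.

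Of the larger subunits of complex III none passed. Uqcrc1 and Uqcrc2 encode the core proteins that face the matrix. Uqcrc1 was the 1 gene of the complex with a change above 0, at 29.8 to 55.0 FPKM in mut and 29.0 to 36.3 FPKM in wt libraries (log2 change 0.30, SE 0.23). Uqcrc2 ranged from 29.7 to 46.2 FPKM in mut and from 47.4 to 62.4 FPKM in wt libraries without overlap, at a log2 change of -0.47 (SE 0.21, limma adjusted p = 0.17). The Rieske iron-sulfur gene Uqcrfs1 ranged from 17.0 to 26.2 FPKM in mut and from 25.4 to 32.3 FPKM in wt libraries, a change of -0.38 (SE 0.19, limma adjusted p = 0.22). Cyc1, for a further subunit of complex III, was left out of the members by its symbol. It averaged 27.2 FPKM in mut and 30.5 FPKM in wt samples, a change of -0.16 (SE 0.26, limma adjusted p = 0.71).

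**Figure D2:**
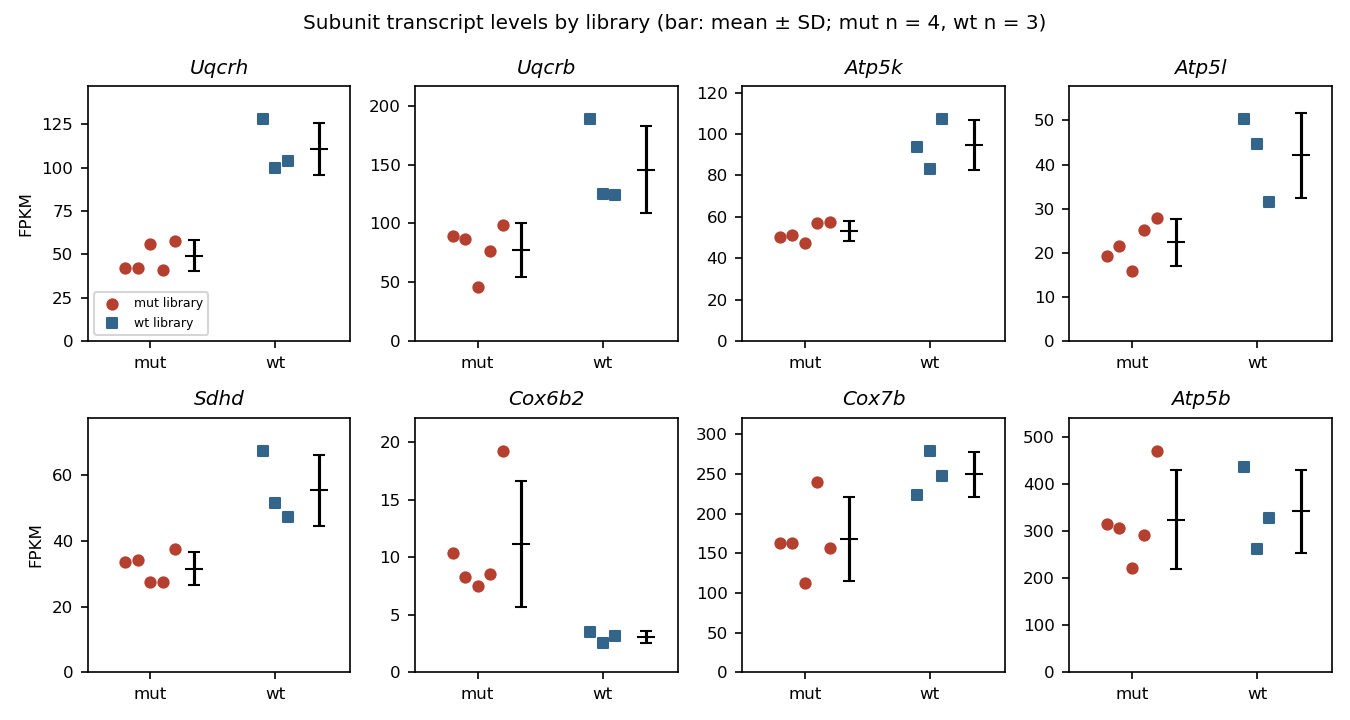
FPKM of 8 subunit genes in every library (vertical axes start at 0), with mut libraries as circles left of wt libraries as squares, and the mean ± SD of 4 mut and 3 wt samples beside them. Uqcrh, Uqcrb, Atp5k, Atp5l and Sdhd have all mut libraries below all wt libraries, Cox6b2 has them above, and Cox7b and Atp5b overlap.

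In complex IV a single gene passed, and it rose. Cox6b2 encodes the testis form of subunit 6b, which sits at the dimer interface on the intermembrane side. The gene lies on chromosome 7 (4751792 to 4753094, ENSMUSG00000051811). It measured 10.4, 8.29, 7.48, 8.54 and 19.3 FPKM in mut replicates 1 to 5, against 3.55, 2.52 and 3.20 FPKM in wt replicates 1 to 3. Every mut library was above every wt library, and mut replicate 5 was the highest. The means were 11.2 ± 5.46 FPKM in mut (SD, n = 4) and 3.09 ± 0.522 FPKM in wt samples (SD, n = 3), 3.61-fold higher, with a log2 change of 1.49 ± 0.30 (SE; limma adjusted p = 0.033). The exact permutation p was 0.057. It stayed past the threshold under TPM, at 1.86, and without mut replicate 5 the change was 1.21 (limma adjusted p = 0.040). Mut replicate 5 also had the highest primitive endoderm sum, whereas mut replicates 1 to 3, which had the highest feeder sums, had 7.48 to 10.4 FPKM of Cox6b2. Mut replicate 4 had the lowest primitive endoderm and feeder sums of the mut libraries, 67.9 and 265.5 FPKM, and 8.54 FPKM of Cox6b2. The part of other cells in the rise was not tested.

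The widely expressed partner of Cox6b2, Cox6b1, did not pass. Cox6b1 ranged from 46.2 to 93.5 FPKM in mut and from 78.2 to 128 FPKM in wt libraries (log2 change -0.49, SE 0.29, limma adjusted p = 0.29). Of the summed FPKM of Cox6b1 and Cox6b2, Cox6b2 made up 12.0%, 10.1%, 13.9%, 12.0% and 17.1% in mut replicates 1 to 5, against 2.69%, 2.9% and 3.93% in wt replicates 1 to 3. The share averaged 13.5% ± 2.67 in mut (n = 4) and 3.17% ± 0.665 in wt samples (n = 3), and the groups did not overlap (exact two-sided permutation p = 0.057, or 0.40 adjusted over 7 isoform shares). This ratio within a library does not depend on how libraries are scaled.

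The other tissue-restricted isoforms of complex IV were near or below the limit of 1 FPKM. Cox7a1, the muscle form of subunit 7a, was tested and measured 1.71, 1.85, 1.98, 2.32 and 1.27 FPKM in mut and 4.28, 2.91 and 0.550 FPKM in wt libraries, with overlap. Cox4i2, the lung form of subunit 4, was not tested and measured 0.200, 0.265, 0.467, 0.321 and 0.471 FPKM in mut and 0.0289, 0.0613 and 0.225 FPKM in wt libraries. Cox7b2, known from testis, measured 0.773, 0.153, 0.296, 0.718 and 0.359 FPKM in mut and 1.35, 0.554 and 0.565 FPKM in wt libraries. The muscle forms Cox6a2 and Cox8b were listed at 0 in most libraries. Cox6a2 was above 0 only in mut replicates 2 and 3, at 0.220 and 0.0468 FPKM. Cox8b was above 0 in mut replicate 3 and wt replicates 1 and 2, at 0.280, 0.186 and 0.226 FPKM, and Cox8c, a testis form, only in mut replicate 5, at 0.0710 FPKM. Of the summed FPKM of each pair, Cox4i2 made up at most 0.903%, Cox7b2 at most 0.599% and Cox7a1 at most 12.0% in any library.

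**Figure D3:**
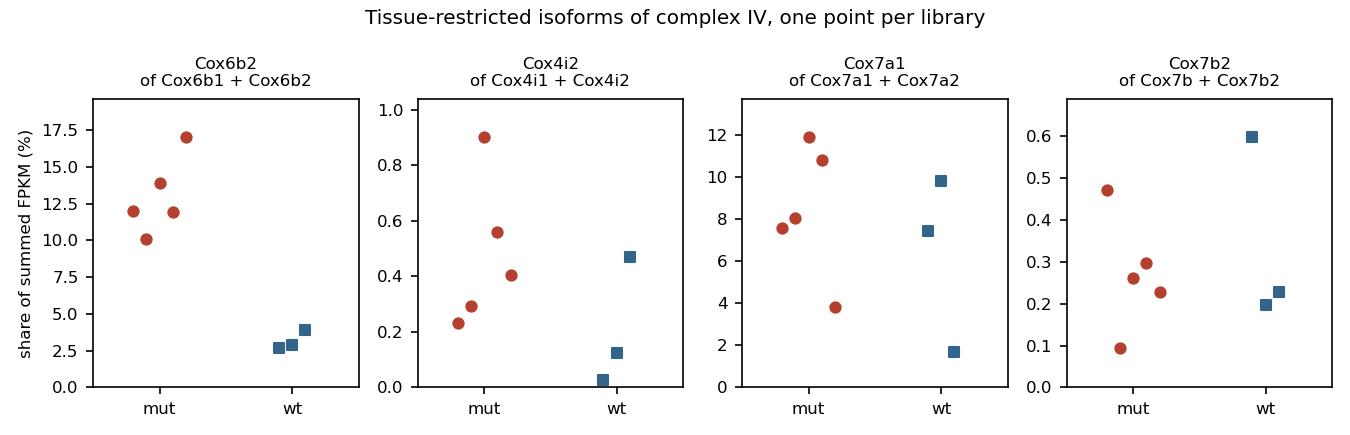
Share of the tissue-restricted isoform in the summed FPKM of its subunit (vertical axis, %), with 1 point per library, mut libraries as circles left of wt libraries as squares. The Cox6b2 share is 10.1% to 17.1% in mut libraries and 2.69% to 3.93% in wt libraries, while the shares of Cox4i2, Cox7a1 and Cox7b2 overlap between the groups.

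The 11 other genes of complex IV split in direction, and none passed. The most abundant was Cox7b on chromosome X, at 163, 163, 112, 240.2 and 157 FPKM in mut and 223, 279 and 247 FPKM in wt libraries. Mut replicate 4 lay among the wt values, and the log2 change was -0.62 (SE 0.28, limma adjusted p = 0.18). Cox7a2 measured 20.8, 21, 14.6, 19.1 and 32.0 FPKM in mut and 53.1, 26.8 and 32.5 FPKM in wt libraries, a change of -0.76 (SE 0.31, limma adjusted p = 0.15). Cox6c, at 57.4 to 188 FPKM in mut and 99.9 to 211 FPKM in wt libraries, and Cox7c, at 44.3 to 78.4 FPKM in mut and 54.1 to 115 FPKM in wt libraries, also had changes below 0.

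Above 0 were Cox4i1, Cox5a, Cox5b, Cox6a1, Cox7a2l and Cox8a. Cox4i1 and Cox5a are early-assembling subunits next to the catalytic core, and Cox5b binds zinc on the matrix side. Cox5b had the widest range, from 50.9 FPKM in mut replicate 3 to 201 FPKM in mut replicate 5, against 52.7 to 121 FPKM in wt libraries. Cox4i1 ranged from 51.2 to 116 FPKM in mut and from 47.7 to 109 FPKM in wt libraries, and Cox8a from 48.9 to 138 FPKM in mut and from 54.6 to 101 FPKM in wt libraries. Cox5a ranged from 21.2 to 30.4 FPKM in mut and from 14.8 to 25.3 FPKM in wt libraries, at a log2 change of 0.38 (SE 0.22, limma adjusted p = 0.28). With the length and GC trend removed the change of Cox5a was 0.70 (limma adjusted p = 0.049), and under TPM 0.86 (limma adjusted p = 0.14). Removing that trend gave 1398 called of 11796 genes, against 895 of 11949 with the trend kept. Cox6a1 had 8.84 to 19.2 FPKM in mut and 7.94 to 17.6 FPKM in wt libraries, and Cox7a2l, which joins complexes III and IV in supercomplexes, 19.3 to 40.1 FPKM in mut and 18.3 to 31.0 FPKM in wt libraries. For each of these 6 genes the groups overlapped.

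In complex V Atp5k, the small membrane subunit e of the dimer interface, fell. It lies on chromosome 5 (108433244 to 108434448, ENSMUSG00000050856). Its levels were 50.01, 51.3, 47.2, 56.8 and 57.2 FPKM in mut replicates 1 to 5, against 93.9, 83.2 and 107 FPKM in wt replicates 1 to 3. The mut values were tightly grouped and all below the wt values. The means were 53.0 ± 4.89 FPKM in mut (SD, n = 4) and 94.7 ± 12.0 FPKM in wt samples (SD, n = 3), a log2 change of -0.82 ± 0.19 (SE; limma adjusted p = 0.040). The exact permutation p was 0.057.

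The calls of Uqcrh, Cox6b2 and Atp5k were lost with any 1 wt line left out, as were nearly all calls: 5, 2 and 2 genes in all were called without wt replicate 1, 2 and 3, against 895 with all 3. Without wt replicate 1, 2 or 3 the limma adjusted p was 0.097, 0.13 and 0.11 for Uqcrh, 0.099, 0.14 and 0.11 for Cox6b2, and 0.11, 0.13 and 0.13 for Atp5k. The changes kept their size, at -1.23 to -1.05, 1.38 to 1.57 and -0.91 to -0.73. The calls were also lost without mut replicate 4 and without the mut 1 and 2 pair, at adjusted p of 0.059 to 0.076, where 241 and 5 genes in all were called. Under TPM Uqcrh and Atp5k did not pass, at -0.65 and -0.32 (limma adjusted p of 0.29 and 0.61).

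The promoters of these 3 called genes are shown because they allow the letters bound by factors known to act on respiratory genes to be read beside the values. They run from 250 bases before to 50 bases after the start of the RefSeq transcript, 5′ to 3′ on the gene's strand (GRCm38.p6). Capitals mark matches, on either strand, to GCGCA and GCGC parted by any 1 base (nuclear respiratory factor 1), CCGGAAG (ETS family, including GABPA), CCAAT (nuclear factor Y) or AANATGGC (YY1).
Uqcrh, chr4:116075021-116075320, minus strand: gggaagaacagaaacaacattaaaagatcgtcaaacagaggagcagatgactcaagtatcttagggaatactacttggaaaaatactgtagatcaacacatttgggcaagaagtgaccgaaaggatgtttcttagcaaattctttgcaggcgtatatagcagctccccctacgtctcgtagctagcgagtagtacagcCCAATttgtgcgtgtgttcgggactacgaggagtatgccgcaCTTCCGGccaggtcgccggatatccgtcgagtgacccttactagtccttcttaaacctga
Atp5k, chr5:108434350-108434649, minus strand: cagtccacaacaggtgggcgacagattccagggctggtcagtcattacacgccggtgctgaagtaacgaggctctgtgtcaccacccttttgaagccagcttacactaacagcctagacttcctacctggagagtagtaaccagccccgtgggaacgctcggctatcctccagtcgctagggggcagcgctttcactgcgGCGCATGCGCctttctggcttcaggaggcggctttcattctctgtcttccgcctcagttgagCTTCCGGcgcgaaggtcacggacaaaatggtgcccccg
Cox6b2, chr7:4753045-4753344, minus strand: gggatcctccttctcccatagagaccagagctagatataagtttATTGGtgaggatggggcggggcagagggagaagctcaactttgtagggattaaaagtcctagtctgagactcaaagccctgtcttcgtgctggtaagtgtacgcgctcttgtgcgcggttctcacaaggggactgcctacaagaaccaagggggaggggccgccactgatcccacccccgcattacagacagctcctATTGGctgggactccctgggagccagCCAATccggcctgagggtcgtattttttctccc

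The Atp5k window held the nuclear respiratory factor 1 letters from position -50 and the ETS letters from position 12, counted from the transcript start. The Uqcrh window held the CCAAT letters from -52 and the ETS letters from -10. The Cox6b2 window held CCAAT letters at -206, -9 and 17 and no match to the other 3 motifs. No matches overlapped in these windows. Chromosome 18, which holds the member Atp5a1, was left out of the search. Outside it, windows were found by symbol for 34 of the 45 members. Of these, 10 (29.4%) held the nuclear respiratory factor 1 letters, against 5.19% of 27025 genes outside chromosome 18, and 12 (35.3%) the ETS letters, against 9.93%. CCAAT was in 19 (55.9%), against 41.1%, and the YY1 letters in 4 (11.8%), against 6.96%. The 27025 genes were not limited to genes expressed in these cells, where 11949 genes were tested. Shares among expressed genes were not computed. A match describes letters only, and no test was made.

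The other membrane subunits of complex V did not pass. Atp5l, subunit g, measured 19.3, 21.4, 15.8, 25.2 and 28.0 FPKM in mut and 50.3, 44.6 and 31.4 FPKM in wt libraries without overlap. The log2 change of Atp5l was -0.89 (SE 0.25, limma adjusted p = 0.064). With median-of-ratios size factors its limma adjusted p was 0.026, where 2150 genes in all were called, against 895 without them. Atp5j2, subunit f, ranged from 12.4 to 29.2 FPKM in mut and from 24.2 to 51.4 FPKM in wt libraries with overlap, a change of -0.71 (SE 0.34, limma adjusted p = 0.20). Usmg5, a further small membrane subunit of the enzyme whose symbol kept it out of the 47, measured 66.1 to 117 FPKM in mut and 145 to 184 FPKM in wt libraries, a change of -0.88 (SE 0.24, limma adjusted p = 0.060).

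The genes of the catalytic head had changes near 0, and neither passed. Atp5b, the catalytic beta subunit, had the highest level of the 40 tested members, at 314.5, 307.2, 222, 292 and 470.5 FPKM in mut and 437, 262 and 328 FPKM in wt libraries. The log2 change was -0.10 ± 0.32 (SE; limma adjusted p = 0.85). Atp5a1, the alpha subunit, ranged from 109 to 166 FPKM in mut and from 126 to 172 FPKM in wt libraries, a change of -0.17 (SE 0.23). In the central stalk that turns inside the head, Atp5c1 had 65.4 to 104 FPKM in mut and 78.6 to 128 FPKM in wt libraries. Atp5d had 4.20 to 15.6 FPKM in mut and 4.40 to 10.4 FPKM in wt libraries, and Atp5e 23.5 to 43.0 FPKM in mut and 27.7 to 28.2 FPKM in wt libraries. The log2 changes of these 3 stalk genes were -0.23, 0.43 and 0.21, and all overlapped.

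The 4 genes of the peripheral stalk, which holds the head still, all had changes below 0 and a median of -0.47. Atp5f1 measured 81.3, 79.5, 66.7, 84.8 and 103 FPKM in mut and 130, 114 and 100.2 FPKM in wt libraries (log2 change -0.46, SE 0.22, limma adjusted p = 0.19). Mut replicate 5 reached the lowest wt value, so the groups just overlapped. Atp5h ranged from 85.5 to 117 FPKM in mut and from 114 to 184 FPKM in wt libraries, and Atp5o from 73.6 to 100.1 FPKM in mut and from 96.1 to 122 FPKM in wt libraries. Atp5j had 73.0 and 71.3 FPKM in mut replicates 1 and 2 and 135 to 183 FPKM in mut replicates 3 to 5, against 181 to 252 FPKM in wt libraries. Atp5j shares its promoter region with Gabpa on the opposite strand, and the genes overlap.

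The c-ring, the rotor through which protons pass, is one protein encoded by 3 genes. Atp5g3 was the most abundant of them, at 18.1 to 30.1 FPKM in mut and 25.1 to 34.3 FPKM in wt libraries. Its share of the summed FPKM of the 3 genes averaged 63.9% ± 9.11 in mut (n = 4) and 64.1% ± 13.8 in wt samples (n = 3). Atp5g1 ranged from 4.70 to 11 FPKM in mut and from 6.41 to 25.3 FPKM in wt libraries, with a share of 18.3% ± 2.85 in mut and 25.4% ± 8.86 in wt samples. Atp5g2 ranged from 4.21 to 12.2 FPKM in mut and from 2.68 to 11.7 FPKM in wt libraries, with a share of 17.8% ± 7.35 in mut and 10.6% ± 5.04 in wt samples. The shares overlapped between the groups (exact two-sided permutation p of 0.97, 0.17 and 0.29 for Atp5g3, Atp5g1 and Atp5g2).

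**Figure D4:**
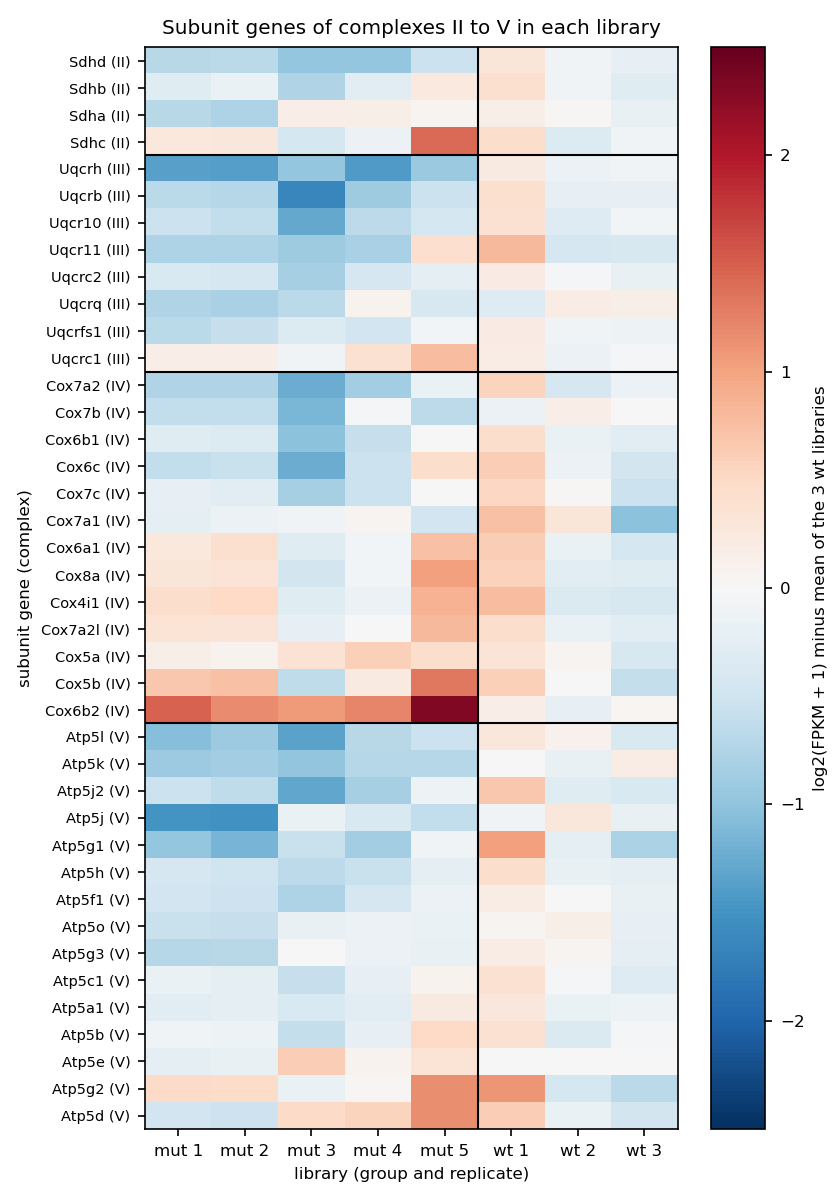
Each tested subunit gene (rows, by complex and log2 change) in each library (columns, mut left of wt), coloured by log2(FPKM + 1) minus the mean of the 3 wt libraries. Uqcrh, Atp5k, Atp5l and Sdhd are low in all 5 mut columns, Cox6b2 is high in all 5, and many complex IV genes are high in mut 5 and wt 1.

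The members varied together from library to library within each group. Wt replicate 1 was the highest wt library for 34 of the 40 tested members (85.0%), as it was for 67.5% of all genes tested. Mut replicate 5 was the highest mut sample for 31 of 40 (77.5%), against 51.8% of all genes, and mut replicate 3 the lowest for 28 of 40 (70.0%), against 36.8%. In complex IV mut replicate 3 was the lowest for 11 of 13 genes. The summed FPKM of the 45 subunit genes was 1893.6 to 3096.3 in mut and 2596.4 to 3599.6 in wt libraries. These sums were not scaled to the total FPKM, which was 753984 to 1269265 in mut and 1192982 to 1780534 in wt libraries. Mut replicate 3 had both the lowest sum and the lowest total. In bulk RNA, fewer cells of a type and less RNA per cell cannot be told apart.

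The mean log2 level of each complex carries the same library order. For complex III it was 5.03, 5.02, 4.82, 5.13 and 5.48 in mut replicates 1 to 5, against 5.92, 5.51 and 5.53 in wt replicates 1 to 3, so that mut replicate 5 came within 0.03 of the lowest wt library. For complex IV it was 5.29, 5.29, 4.75, 5.16 and 5.73 in mut and 5.70, 5.12 and 4.85 in wt libraries, with the groups intermixed. For complex V it was 5.25, 5.22, 5.33, 5.45 and 5.82 in mut and 6.14, 5.67 and 5.50 in wt libraries, and mut replicate 5 lay above wt replicates 2 and 3. For complex II it was 4.54, 4.58, 4.40, 4.59 and 5.21 in mut and 5.23, 4.78 and 4.71 in wt libraries, again with mut replicate 5 among the wt values.

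**Figure D5:**
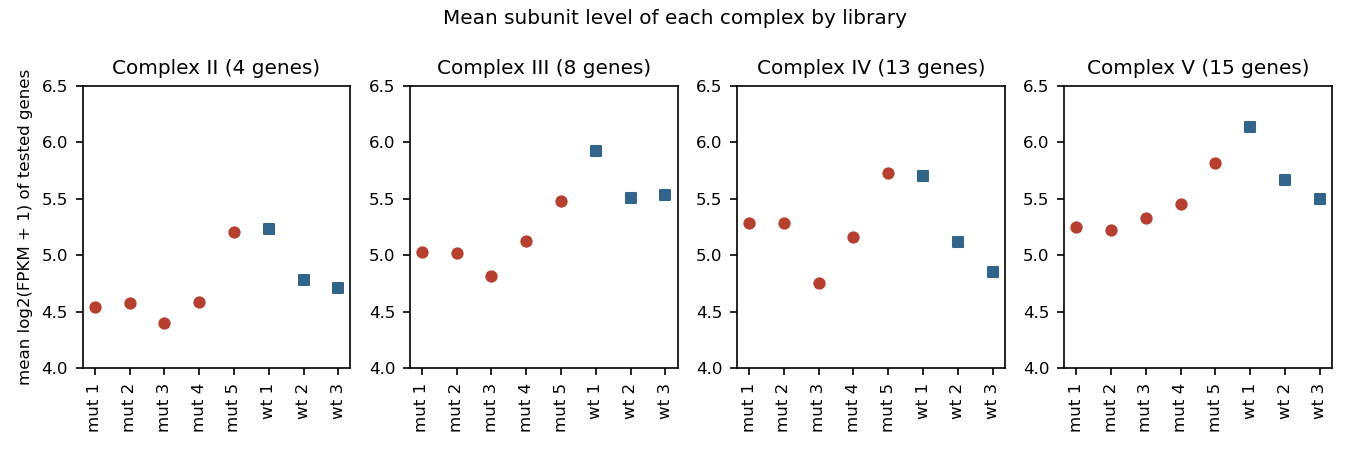
Mean log2(FPKM + 1) of the tested genes of each complex (vertical axis, 4 to 6.5) in each library, mut libraries as circles left of wt libraries as squares. Mut libraries lie below all wt libraries for complex III only (4.82 to 5.48 against 5.51 to 5.92), and mut 5 and wt 1 are high in all 4 panels.

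Of 9 other subunits, electron carriers and regulators none passed in limma over all genes, and 3 were lower at an unadjusted p below 0.05. Their log2 changes were below 0 for 8 of 9, with a median of -0.64, and the smallest p-values were those of Usmg5, described above, and of Cycs, for cytochrome c, at a log2 change of -0.64 (SE 0.27, limma adjusted p = 0.15). Of 37 tested assembly factors and mitochondrial RNA-binding factors 1 fell and none rose, where 4.54% and 2.95% of all genes were called. At an unadjusted p below 0.05 they counted 12 lower and 0 higher, where 16.8% and 13.6% of all genes were, and 30 of 37 had changes below 0, with a median of -0.23. The 1 that fell was Fastkd2, for a mitochondrial RNA-binding protein. It measured 5.32, 5.26, 5.17, 6.20 and 7.14 FPKM in mut and 11.3, 9.78 and 8.99 FPKM in wt libraries, all mut libraries being below all wt libraries (log2 change -0.67, SE 0.16, limma adjusted p = 0.047). Without a wt replicate its adjusted p was 0.12 to 0.16, without mut replicate 3 or 4 or the mut 1 and 2 pair 0.064 to 0.10, and under TPM 0.66.

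Of the 6 mtDNA-encoded subunits of complexes III to V none passed in limma, nor had any an unadjusted p below 0.05. mt-Cytb, for cytochrome b of complex III, averaged 1271 ± 271 FPKM in mut and 1918 ± 374 FPKM in wt samples (n = 4 and n = 3, limma adjusted p = 0.22). mt-Co1 of complex IV averaged 5332 ± 1147 FPKM in mut and 6579 ± 1025 FPKM in wt samples (limma adjusted p = 0.55). The other 4 were listed at low levels: mt-Co2 at 2.55 ± 1.33 FPKM in mut and 2.17 ± 0.557 FPKM in wt samples, mt-Co3 at 4.6 ± 1.02 FPKM in mut and 4.40 ± 0.0199 FPKM in wt samples, mt-Atp6 at 2.08 ± 0.843 FPKM in mut and 1.86 ± 0.450 FPKM in wt samples, and mt-Atp8 at 23.6 ± 7.36 FPKM in mut and 25.1 ± 6.32 FPKM in wt samples. These lie so far below mt-Co1 and mt-Cytb that they are not taken as sound measurements of the mitochondrial transcripts.

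The 2 rows that are no subunits did not pass either. Cox4nb, which lies head to head with Cox4i1, measured 1.58, 1.48, 5.77, 3.64 and 3.76 FPKM in mut and 5.82, 4.36 and 4.86 FPKM in wt libraries. Atp5l2 measured 0.265, 0, 0.889, 2.21 and 0.436 FPKM in mut and 0.859, 3.33 and 1.14 FPKM in wt libraries.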

How the data were processed

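The 5 mut and 3 wt RNA-seq libraries of iPS cells were used, grouped by the sample titles. The authors deposited FPKM, with a column for each library and Ensembl gene IDs as rows; STAR and Cufflinks are named in the submitters' processing notes. Versions, genome build, annotation and strand setting are not given in the sources used here. Where a symbol had several rows (265 symbols) their FPKM were added up. Of 31 NA cells, 0 were in members. Positions are from GENCODE M21 (GRCm38) by gene ID and promoters from RefSeq (GRCm38.p6); they are not the authors' own.

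FPKM are no counts, so no count test was made. Genes averaging 1 FPKM or more were tested on log2(FPKM + 1), which understates the change of low genes, with limma 3.58.1 in R 4.3.3 (eBayes with a mean-variance trend) over 11949 genes, adjusted by Benjamini-Hochberg. The fit was tested on simulated data. Mut replicates 1 and 2 were averaged: their squared difference was 0.70 to 2.24 times that of fragment sampling, at depths of 8400000 and 28600000 fragments implied by the low values, against at least 2.76 and 7.98 times in the 12 other pairs. Single values were compared by exact permutation over 35 splits. Permutations ran in SciPy 1.17.1 under Python 3.11.15, and plots in matplotlib 3.10.9. Members, gene lists and tests were chosen with earlier results of these data known. The genes given in every library are the called members, in each complex the 2 with the next smallest p and the most abundant one, and tissue-restricted isoforms of at least 0.1 FPKM in a library. From the other lists, the called genes or, with none, the 2 with the smallest p are named. Ndufa4 and Cyc1 were named, and Atp5j and Cox8c were given more fully, after their values were seen.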

Additional observations from a re-analysis of the deposited data

Results flagged for a closer look

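Among the 4 mut samples, a single sample stood far from the other 3 for 4 of the 42 tested rows, where chance flags about 1 in 20. The mean of mut replicates 1 and 2 was the low one for Sdha, at 50.7 FPKM, and for Atp5o, at 74.5 FPKM. Mut replicate 5 was the high one for Uqcr11, at 23.5 FPKM, and for Cox6b2, at 19.3 FPKM.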

How the results depend on the processing

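Of 795 values of single members under 19 alternatives, 730 kept their direction and their side of the threshold, 23 were no longer called, 14 became called and 28 changed sign. Members called lower numbered 0 in complex II, 1 in complex III and 1 in complex V, and 1 was called higher in complex IV. With no filter, and with the replicate block, the last 3 counts were 0 (adjusted p of 0.058 for Uqcrh and Cox6b2 and 0.065 for Atp5k with the block), and under TPM complexes III and V had 0. With median-of-ratios size factors complexes II, III and V had 1, 3 and 2 lower, and with array weights 1, 2 and 2. With 8 separate libraries complexes II and V had 1 and 2. Complex II had 1 with a mean of at least 5 FPKM and with no trend. Calls over all genes moved with these settings as well. Of 11949 genes, 895 were called in the fit used above and 1113 under TPM. With median-of-ratios size factors 2150 were called, with array weights 2752 and with 8 separate libraries 2203. The replicate block left 1 gene called, and the fit with no filter 4 of 27108. Removing the length and GC trend, an alternative chosen after seeing the data, gave 1 and 2 lower in complexes II and V and 2 higher in complex IV. Leaving out 1 replicate gave 0 to 1 in complexes III, IV and V. Under TPM the medians moved to 0.32, 0.0, 0.63 and 0.24 for complexes II, III, IV and V, and under the replicate block that of complex III to -0.78. The replicate numbers did not pair the samples: deviations of same-numbered libraries correlated at 0.013, -0.012 and 0.051.

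Changes of sign were among members that did not pass. Those under TPM came with a shift of the median of all genes from -0.03 to 0.37. Under TPM they were Sdha 0.42, Sdhb 0.23, Uqcrc2 0.04, Uqcrfs1 0.11, Uqcrq 0.07, Cox6b1 0.02, Cox6c 0.03, Cox7a1 0.17, Cox7c 0.10, Atp5a1 0.34, Atp5b 0.41, Atp5c1 0.28, Atp5f1 0.05, Atp5h 0.04, Atp5o 0.24 and Atp5g3 0.24. With the length and GC trend removed Cox7c was 0.16 and Atp5o 0.04, with array weights Atp5b 0.08, and with the replicate block Atp5d -0.17. Without the mut 1 and 2 pair Sdha was 0.13. Leaving out single replicates gave ranges across 0 of -0.10 to 0.51 for Sdhc, -0.05 to 0.48 for Cox6a1, -0.69 to 0.19 for Cox7a1, -0.06 to 0.49 for Cox8a and -0.30 to 0.09 for Atp5b. The cause was not tested. Library depth is not recorded and could only be bracketed from the low values, so no limit from counting is given for single genes.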

Other observations

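One row with "-ps" in its symbol matched the rest of the rule and was left out of the members. This processed pseudogene of subunit g, Atp5l-ps1, measured 0.0960 to 0.513 FPKM in the 5 mut libraries and 0.240, 0.324 and 7.39 FPKM in wt replicates 1 to 3. Wt replicate 3, which held the high value, had the lowest level of Atp5l itself among the wt libraries, 31.4 FPKM.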
